A study of Saccharomyces cerevisiae with 8 samples.

Results

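The transcript levels of a Saccharomyces cerevisiae strain without ESA1 (esa1 sup2-, 3 arrays) were compared with those of a strain that keeps ESA1 (ESA1 sup2-, 3 arrays). Both strains carry the suppressor mutation sup2-, so by their labels they differ in ESA1, in a background where cells live without it. The members were all arrays titled with these 2 genotypes, 6 of the 8 arrays of the series, and the other 2 arrays were of the wild type. SUP2 is not identified in the labels, which also give no further genotype, mating type or number of clones for any strain. All cultures were 10 mL, grown to saturation overnight at 30 °C in rich medium (YPD) with 2% glucose, and 5 µg of total RNA went into each labelling for an Affymetrix yeast array. Culture density and remaining glucose at harvest were not among the values used here. A difference in growth stage between the strains therefore cannot be told apart from genotype. Signals are the authors' scaled intensities, in arbitrary units. Separate cultures are not stated for the replicates. The p-values below therefore rest on the spread among these arrays, and that spread may be technical.

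Esa1 is the catalytic subunit of NuA4, an acetyltransferase complex that acetylates histone H4 and the histone variant H2A.Z at promoters, and the gene is essential in otherwise normal yeast. Yeast that exhausts glucose in rich medium changes from fermentation to respiration of ethanol and acetate. That shift uses the glyoxylate cycle, gluconeogenesis, peroxisomes and mitochondria, and it depends on the kinase Snf1 and the activators Cat8, Adr1 and the Hap complex. A saturated culture is therefore a setting in which wild-type cells hold high levels of such transcripts.

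ESA1 (YOR244W, chromosome XV) checked the labels. Its signal was 1.19, 3.34 and 0.267 in esa1 sup2-, against 819, 894 and 877 in ESA1 sup2- and 1216 and 1067 in the wild type. The esa1 sup2- signals lay below the background bound of those arrays, and ESA1 was the single probe set tested that was below it on every esa1 sup2- array and not in ESA1 sup2-. The difference was at least 73.3-fold (limma adjusted p = 6.2e-09). Of the 2 annotated genes on each side, PUS7, a pseudouridine synthase next to ESA1, had 998, 861 and 813 in esa1 sup2-, against 485, 566 and 545 in ESA1 sup2- (log2 fold change 0.63, SE 0.09, limma adjusted p = 2.5e-04). ENV9, 2 genes away on the other side, had 1598, 1450 and 1323, against 866, 893 and 914 (0.64, SE 0.08, limma adjusted p = 1.4e-04). The 2 strains did not overlap in either gene. DGA1, which makes storage fat and lies between ESA1 and ENV9, had 992, 1263 and 753 in esa1 sup2-, against 1084, 896 and 1033 in ESA1 sup2-, with overlapping arrays (log2 fold change -0.02, not called). SSP2, a sporulation gene, was too dim to test, at 45.5 to 75.5 units in esa1 sup2- and 82.3 to 97.9 units in ESA1 sup2-.

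One array stood apart on one chromosome. In esa1 sup2- replicate 3 the median of the 252 chromosome XI probe sets tested was 0.67 above the ESA1 sup2- mean on the log2 scale, with each array's own median set to 0. It was -0.02 and -0.04 in esa1 sup2- replicates 1 and 2. Of these probe sets, 239 (94.8%) were brighter in replicate 3 than in both other esa1 sup2- arrays, against 24.3% of probe sets on the other chromosomes. Among the 158 with signals over 500 on all 3 arrays the median ratio of replicate 3 to the mean of replicates 1 and 2 was 1.67, with quartiles of 1.39 and 1.89. On the other chromosomes it was 0.959. The raised median was present along the whole chromosome: divided into 6 stretches of 42 probe sets each, replicate 3 gave medians of 0.62 to 0.73, while replicates 1 and 2 gave -0.11 to 0.13. A change in the number of copies of the chromosome was not measured, and no cause was tested. With all arrays, 78 chromosome XI probe sets were called higher and 40 (15.9%) lower, and without replicate 3 the counts were 81 and 96 (38.1%). Values of chromosome XI genes are therefore given below with and without that array.

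**Figure D1:**
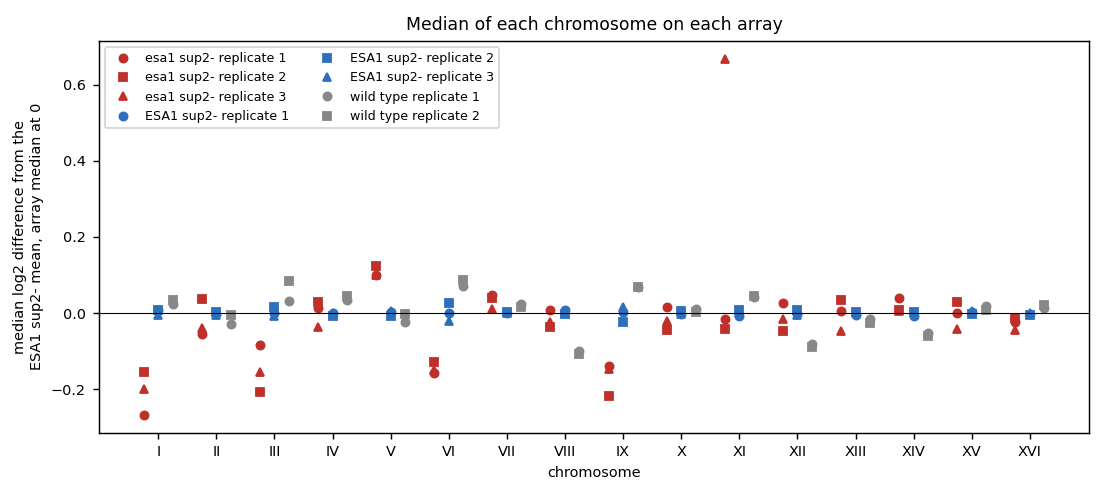
Median log2 difference from the ESA1 sup2- mean (vertical axis) for the tested probe sets of each chromosome (horizontal axis), one point per array, with each array's median over all probe sets set to 0. Chromosome XI of esa1 sup2- replicate 3 lies at 0.67, and every other chromosome median of the esa1 sup2- arrays lies between -0.27 and 0.12.

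The other features of the arrays were smaller. Chromosomes I, III, VI and IX had medians of -0.27 to -0.08 on the esa1 sup2- arrays, and chromosome V had 0.10 to 0.12. The SD of log2 differences between replicates was 0.262 to 0.323 in esa1 sup2-. In ESA1 sup2- it was 0.0900 between replicates 1 and 3, and 0.210 and 0.206 between replicate 2 and those arrays. Each strain ran on a fluidics station of its own (2 for esa1 sup2-, 3 for ESA1 sup2-), so station and genotype cannot be told apart. Median signals of S. cerevisiae probe sets were 537 to 560 in esa1 sup2- and 613 on all ESA1 sup2- arrays, although the authors' scaling gave all arrays nearly the same trimmed mean. Centring each array on its median moves the median log2 fold change of all probe sets to 0.11, against -0.02 without it, and signs of small values below are relative to that shift.

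Of 4398 probe sets tested (4372 genes), 2971 (67.6%) were called at a limma adjusted p under 0.05. The calls were 1397 higher (31.8%) and 1574 lower (35.8%) in esa1 sup2-. With arrays centred on their medians the split was 1760 higher and 1173 lower. The large differences among tested probe sets were mostly decreases: 163 probe sets (3.71%) were higher by at least 2-fold and 294 (6.68%) lower, and past 8-fold there were 2 and 35. The filter on level used the mean over all 8 arrays. Genes bright on the esa1 sup2- arrays alone were thus left out more readily than genes dim there alone. AAC3, for example, had 469, 575 and 599 units in esa1 sup2-, against 179, 117 and 187 in ESA1 sup2-, and was left out. Among genes given below, STD1 and MF(ALPHA)2 passed largely through their level in esa1 sup2-, so the filter favoured their calls as higher. With no filter, 1521 probe sets were called higher and 2031 lower, and with the dimmest 50% left out 1059 and 871. The split past 2-fold was not counted under these filters. The 3 esa1 sup2- arrays and the 3 ESA1 sup2- arrays did not overlap for 70.8% of probe sets. A call or a gap between the strains is thus common in this comparison, and the gene groups below are read against these shares. They are described by their counts and medians alone. Fold changes are on the scale log2(signal + 121), which understates those of dim genes, and with a pseudocount of 500 the values of many genes under about 500 units shrink further. Because these are bulk samples, fewer cells with a transcript and less of it per cell cannot be told apart.

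**Figure D2:**
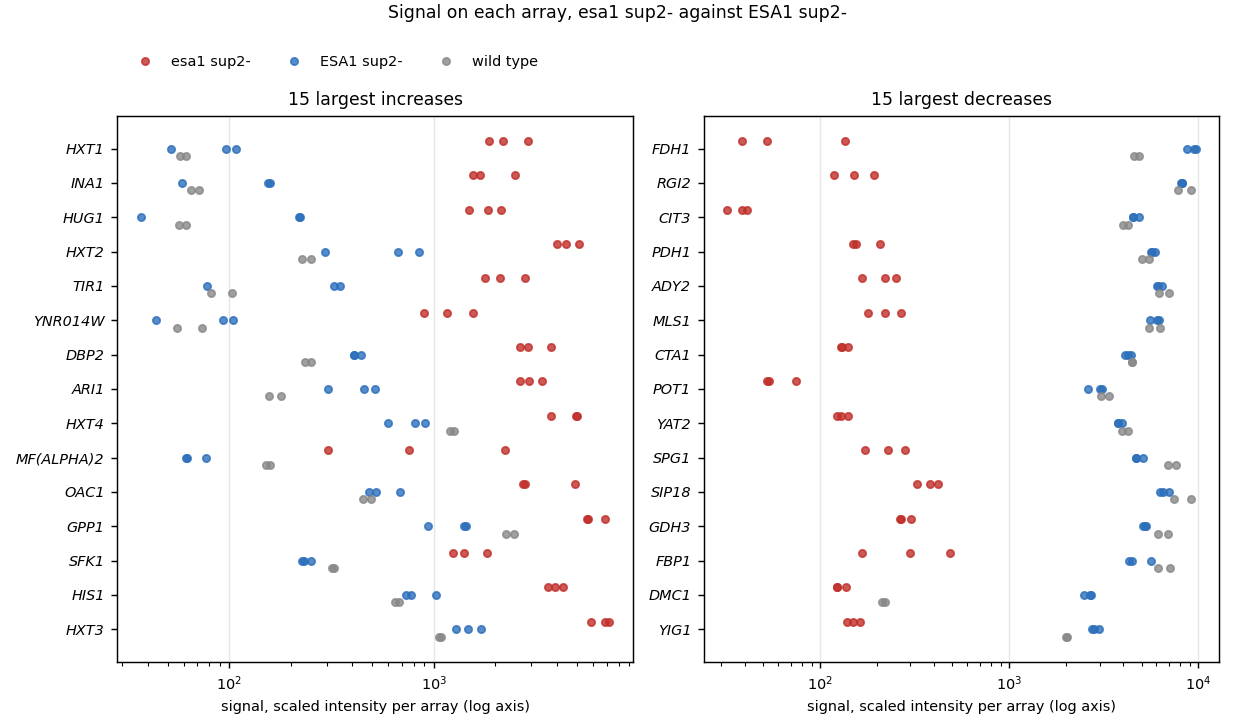
Signal on each array (log axis) of the 15 called genes with the largest increases and the 15 with the largest decreases whose arrays did not overlap. In each row the esa1 sup2- arrays are drawn above the ESA1 sup2- arrays and the wild-type arrays. For most of the decreases the wild type lies with ESA1 sup2-, and DMC1 is the exception, with the wild type near esa1 sup2-.

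**Figure D3:**
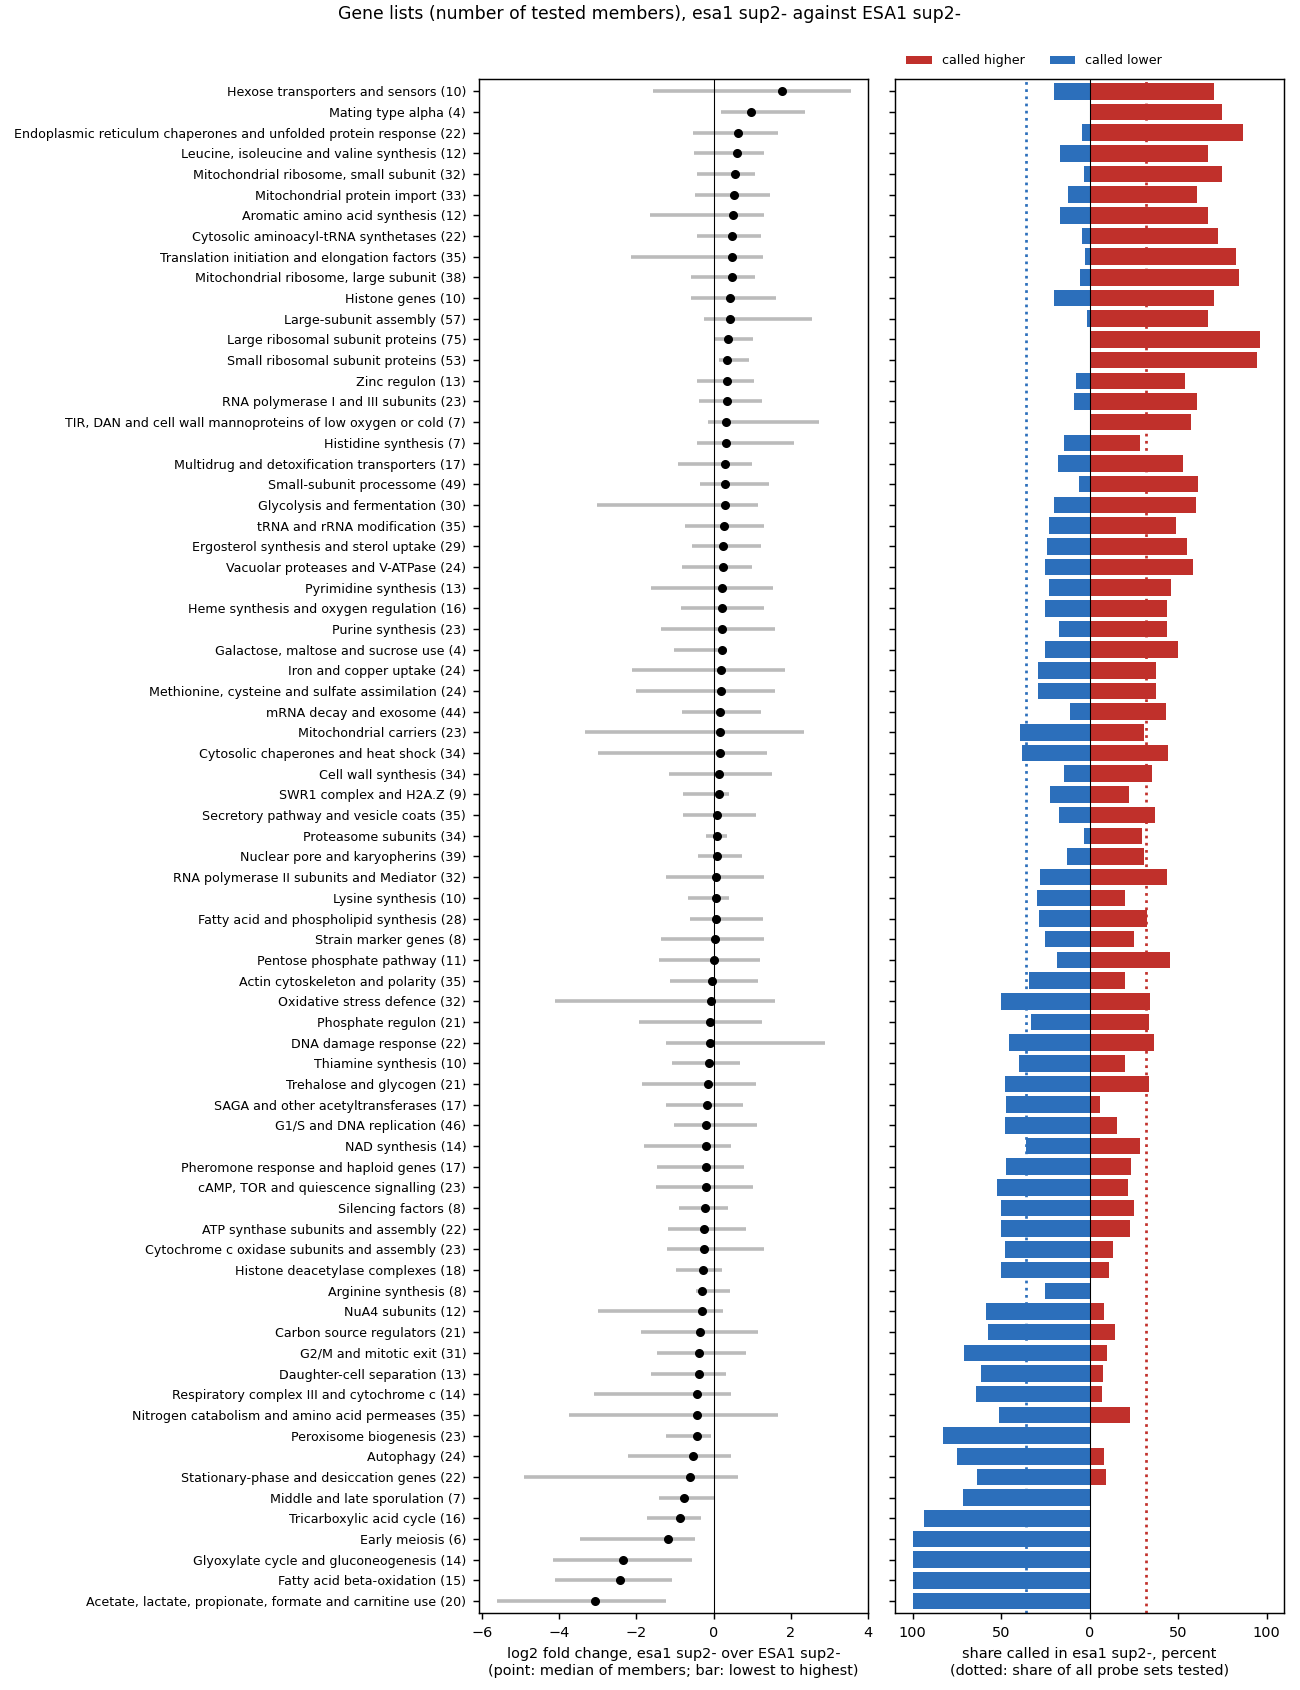
Gene lists ordered by the median log2 fold change of their tested members, with the lowest and highest member (left panel) and the share called higher and lower (right panel, percent; dotted lines mark 31.8% and 35.8%, the shares of all probe sets tested). Hexose transporters stand at one end, with a median of 1.76, and the use of acetate and related compounds at the other, with -3.06.

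Transporters that bring glucose into the cell were among the largest increases. HXT3, a low-affinity transporter, had 6893, 7216 and 5893 units in esa1 sup2-, against 1476, 1290 and 1705 in ESA1 sup2- (log2 fold change 2.08, SE 0.11, limma adjusted p = 9.9e-07). HXT4, which is used at low glucose, had 5033, 4975 and 3725, against 809, 600 and 902 (2.40, SE 0.15). Every esa1 sup2- array lay above every ESA1 sup2- array for both, and the wild type was at 1087 and 1060 for HXT3 and at 1255 and 1197 for HXT4. HXT1, the transporter of high glucose, had 2172, 2891 and 1867 units, against 96.9, 52.1 and 108 (3.54, SE 0.16). HXT5, a transporter of slowly growing and starved cells, went the other way, with 671, 571 and 560 units in esa1 sup2-, against 1967, 2154 and 1940 in ESA1 sup2- and 5467 and 6280 in the wild type. The shared probe set of HXT7 and its near-identical neighbour gave 5580, 5500 and 4684 units, against 4330, 4788 and 4482, with overlapping arrays, and its call (log2 fold change 0.20) was lost when any one of 4 arrays was left out.

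The regulators of these transporters did not move as 1 group. STD1 and MTH1 encode the corepressors that act with Rgt1 when glucose is scarce. STD1 had 799, 960 and 653 units in esa1 sup2-, against 127, 116 and 143 in ESA1 sup2- (log2 fold change 1.88, SE 0.11, limma adjusted p = 2.2e-06), and the wild type had 136 and 124. MTH1 had 1405, 943 and 956, against 294, 216 and 287 (1.65, SE 0.15). SNF3, the sensor of low glucose, fell by 1.05 (SE 0.08), with 422, 367 and 346 units, against 888, 964 and 884. RGT1, the DNA-binding repressor, lies on chromosome XI and had 572, 477 and 1262 units, against 916, 827 and 887. Its log2 fold change was -0.26 with all arrays (not called) and -0.63 without esa1 sup2- replicate 3 (limma adjusted p = 3.3e-04). Of the 18 hexose transporters and sensors listed, 10 were bright enough to test, and 7 of these were called higher and 2 lower. Among the HXT genes left out as dim, HXT10, HXT13 and HXT14 were under 50 units on every array of both strains, and HXT9 had 38.2, 40.3 and 73.4 units in esa1 sup2-, against 107, 50.1 and 122 in ESA1 sup2-.

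The kinases of the first step of glycolysis rose together. HXK2, the hexokinase of glucose-grown cells, had 5085, 5662 and 4945 units in esa1 sup2-, against 1932, 2819 and 2197 in ESA1 sup2- and 1315 and 1230 in the wild type (log2 fold change 1.15, SE 0.12, limma adjusted p = 6.0e-05). HXK1, which wild-type cells hold at high levels when glucose is low, had 6176, 6576 and 5858, against 3496, 3070 and 3573 (0.85, SE 0.09). The strains did not overlap in either gene.

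Activators of growth without glucose were lower in esa1 sup2-. CAT8, the activator of gluconeogenic genes, had 107, 79.1 and 96.3 units, against 688, 729 and 617 in ESA1 sup2- and 1668 and 1621 in the wild type. The log2 fold change of CAT8 was -1.89 (limma adjusted p = 2.6e-07, SE 0.08), and ESA1 sup2- was itself below the wild type by 1.15 on that scale. SIP4, a second activator that binds the same promoter element, had 615, 450 and 693 units in esa1 sup2-, against 1392, 1547 and 1542 (-1.21, SE 0.12). ADR1, the activator of ADH2 and of peroxisomal genes, had 579, 390 and 410, against 1023, 1279 and 946 (-1.06, SE 0.14). All 3 genes had esa1 sup2- arrays below all ESA1 sup2- arrays.

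Subunits of the kinase complex above these activators differed among themselves. SIP2, one of 3 alternative beta subunits of the Snf1 complex, had 270, 226 and 257 units in esa1 sup2-, against 1217, 1082 and 1099 in ESA1 sup2- (log2 fold change -1.75, SE 0.08, limma adjusted p = 3.2e-07). The other beta subunits, SIP1 and GAL83, were at -0.05 and 0.21 and were not called. SNF1, the kinase, had 910, 851 and 786 units, against 830, 879 and 788, with overlapping arrays (0.02, not called). SNF4, the gamma subunit, was higher by 0.27 (SE 0.07). MIG1, the repressor that Snf1 inactivates, had 722, 751 and 507 units, against 336, 257 and 377 (0.81, SE 0.15, limma adjusted p = 1.2e-03).

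Subunits of the Hap complex, which activates respiratory genes, were lower or not called. HAP5, a DNA-binding subunit, had 176, 176 and 187 units in esa1 sup2-, against 384, 348 and 399 in ESA1 sup2- (log2 fold change -0.73, SE 0.06). HAP4, the regulated subunit, lies on chromosome XI and was at -0.33 with all arrays and at -0.38 without replicate 3, and its call was lost with median centring. HAP3 was at -0.15 and was not called. HAP2 was at -0.30, a call lost with quantile normalization, with median centring and with the 6 sup2- arrays fitted alone. OAF1 and PIP2, a pair of factors that activate peroxisomal genes on oleate, were at -0.36 (a call lost with quantile normalization) and -0.52, and RDS2, a further activator of gluconeogenesis, was at -0.79 (SE 0.08). Of the 21 regulators of carbon source use that were tested, 3 were called higher and 12 lower, with a median log2 fold change of -0.34. These counts leave out MIG2, which fell under the filter on mean level although it was bright in esa1 sup2-. MIG2 had 914, 931 and 840 units in esa1 sup2-, against 51.5, 41.7 and 73.7 in ESA1 sup2-, and was dimmer still in the wild type.

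Genes for using acetate, lactate, propionate, formate and carnitine showed the largest median difference of the lists examined. All 20 listed genes were tested and all were lower by at least 2-fold, with a median log2 fold change of -3.06. YAT2, a carnitine acetyltransferase, had 140, 129 and 122 units in esa1 sup2-, against 3760, 3961 and 3776 in ESA1 sup2- and 3950 and 4223 in the wild type (-3.98, SE 0.07, limma adjusted p = 1.9e-09). CRC1, the mitochondrial carrier for acetylcarnitine, had 264, 242 and 190, against 3201, 3218 and 3078 (-3.22, SE 0.09). ACS1, the acetyl-CoA synthetase of low glucose, had 943, 562 and 681, against 6969, 7160 and 6718 (-3.08, SE 0.15). In these 3 genes the esa1 sup2- arrays stood below every array of both other strains, of which the wild type averaged 4086, 2453 and 7120 units for YAT2, CRC1 and ACS1.

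The glyoxylate cycle and gluconeogenesis list was lower in 14 of 14 genes, with a median of -2.34, and the fatty acid beta-oxidation list in 15 of 15, with a median of -2.43. FBP1, the gluconeogenic fructose bisphosphatase, had 484, 298 and 167 units in esa1 sup2-, against 4470, 5587 and 4312 in ESA1 sup2- (log2 fold change -3.55, SE 0.23, limma adjusted p = 3.5e-06). IDP3, the peroxisomal isocitrate dehydrogenase, had 51.9, 53.9 and 82.6, against 1734, 1886 and 1945 (-3.43, SE 0.09). POX1, the acyl-CoA oxidase of beta-oxidation, had 128, 87.0 and 101, against 2096, 2545 and 2289 (-3.42, SE 0.10). The machinery that builds peroxisomes was lower by less: 19 of 23 tested genes were called lower and 0 higher, and the median was -0.44. PEX11, which acts in peroxisome division, fell by 1.24 (SE 0.09) and PEX14, of the import docking complex, by 1.19 (SE 0.07).

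In mitochondria, enzymes and ribosomes went in different directions. Of 16 genes of the tricarboxylic acid cycle, 15 were lower and 0 higher. SDH2, the iron-sulfur subunit of succinate dehydrogenase, had 1741, 1793 and 1442 units in esa1 sup2-, against 5644, 5985 and 5506 in ESA1 sup2- and 6850 and 7531 in the wild type (log2 fold change -1.72, SE 0.09, limma adjusted p = 8.4e-07). NDI1, the internal NADH dehydrogenase that stands in for complex I in this yeast, had 611, 572 and 612, against 2054, 2275 and 2186 (-1.67, SE 0.07). Neither gene had overlapping arrays.

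Complex III, cytochrome c and the NADH dehydrogenases were lower in 9 of 14 genes and higher in 1, with a median of -0.43. Cytochrome c oxidase and its assembly factors were lower in 11 of 23 and higher in 3, and ATP synthase in 11 of 22 and 5. With median centring, 7 genes of cytochrome c oxidase and 6 of ATP synthase were lower. Within each of these lists assembly factors and structural subunits could differ. COX6, a subunit of the oxidase, had 2112, 2339 and 1670 units in esa1 sup2-, against 5138, 4805 and 4545 (-1.21, SE 0.11), whereas COX11, a copper-delivery factor, had 588, 518 and 678, against 354, 363 and 320 (0.61, SE 0.09). STF1, which stabilises the inhibited ATP synthase, was at -1.18 (SE 0.09), and ATP23, an assembly factor, was at 0.83 (SE 0.07).

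The genes for making and importing mitochondrial proteins were mostly higher. Of the mitochondrial ribosome's large subunit, 32 of 38 genes were called higher and 2 lower (median 0.47), and of its small subunit 24 of 32 were higher and 1 lower (median 0.54). Import genes were higher in 20 of 33 and lower in 4 (median 0.53). PAM18, of the import motor, had 1206, 1529 and 1682 units in esa1 sup2-, against 432, 461 and 469 in ESA1 sup2- and 304 and 328 in the wild type (log2 fold change 1.46, SE 0.11, limma adjusted p = 7.4e-06). TOM5, a small subunit of the outer-membrane channel, had 2698, 2675 and 2906, against 1037, 1082 and 1020 (1.30, SE 0.07). NAM9, a protein of the small ribosomal subunit, had 1135, 776 and 1014, against 349, 444 and 392 (1.08, SE 0.13). The strains were apart on every array in these 3 genes.

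The 3 genes of the large subunit with the largest increases, MRPL20, MRPL31 and MRPL38, all lie on chromosome XI. MRPL31 had 1198, 1087 and 2680 units in esa1 sup2-, against 615, 670 and 704 in ESA1 sup2-. Its log2 fold change was 1.07 with all arrays and 0.69 without replicate 3 (limma adjusted p = 1.7e-04). For MRPL20 the values were 1.05 and 0.68, and for MRPL38 they were 1.04 and 0.72. Without replicate 3, 31 genes of the list were still called higher.

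Of 23 mitochondrial carriers tested, 7 were higher and 9 lower in esa1 sup2-, shares close to those of all probe sets. OAC1, which imports oxaloacetate and exports a precursor of leucine, had 2792, 2719 and 4885 units in esa1 sup2-, against 485, 688 and 524 in ESA1 sup2-. It lies on chromosome XI, and its log2 fold change was 2.35 with all arrays and 2.08 without replicate 3. SFC1, which exchanges succinate for fumarate, had 430, 342 and 244 units, against 4185, 4955 and 4088 (-3.32, SE 0.14, limma adjusted p = 2.8e-07). AAC1, a minor ADP/ATP carrier, was at -2.08 (SE 0.07). GGC1, the GTP/GDP carrier, was higher at 1.32, with a wide spread in esa1 sup2- (4123, 1673 and 3787 units, against 1101, 1224 and 1034).

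Yeast holds many enzymes as pairs of related genes, of which one serves in fast growth or is expressed most of the time and the other in stress, starvation or respiration. A list of 42 pairs was written after values of many of these genes had been seen, so its counts describe the data and support nothing further. Both genes were tested in 41 pairs. In 17 pairs the members were called in opposite directions, in 7 both were higher and in 3 both were lower. Of the 17, 11 pairs were called in opposite directions under every processing alternative that tested both genes.

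Among those 11, the members used in glucose-grown cells were mostly the ones that were higher. YEF3, translation elongation factor 3, had 8208, 8842 and 7980 units in esa1 sup2-, against 4679, 5304 and 4588 in ESA1 sup2- (log2 fold change 0.77, SE 0.07), while its relative HEF3 had 434, 270 and 286, against 1900, 1663 and 1952 (-2.13, SE 0.13). GND1, the main 6-phosphogluconate dehydrogenase, had 5884, 6053 and 5266, against 2248, 2546 and 2512 (1.20, SE 0.08), while GND2 had 404, 233 and 201, against 1122, 667 and 1024 (-1.41, SE 0.21). The wild type was highest for both lower genes, with 3358 and 3257 units for HEF3 and 3658 and 3799 for GND2. SSA2, a constitutive Hsp70, had 5339, 4008 and 6003, against 1846, 2345 and 2009, while SSA3, an Hsp70 of stationary phase, had 187, 191 and 196, against 2289, 2710 and 2077. Their log2 fold changes were 1.25 (SE 0.14) and -2.98 (SE 0.10).

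Other pairs among the 11 covered fermentation, ion pumping, nucleotide synthesis and the catalases. ADH1, the main fermentative alcohol dehydrogenase, was at 0.44 (0.18 with quantile normalization) and ADH2, which oxidises ethanol, at -3.02 (SE 0.32), with a high replicate 2 for ADH2 (555, 1707 and 628 units in esa1 sup2-, against 7727, 8054 and 7525). PMA1, the plasma membrane proton pump, was at 0.80 and PMA2 at -1.17. The CTP synthase genes URA7 and URA8 were at 0.94 and -1.32, the orotate phosphoribosyltransferase genes URA5 and URA10 at 0.54 and -1.62, and the transaldolase TAL1 and its relative NQM1 at 0.50 and -1.07. BAT1, the mitochondrial branched-chain aminotransferase, was at 1.25 and the cytosolic BAT2 at -0.40. The catalases gave the widest contrast of the 41 pairs: CTT1, the cytosolic enzyme, had 1285, 1710 and 1007 units, against 406, 273 and 403 (1.58, SE 0.18), while the peroxisomal CTA1 was at -4.10. For CTT1 the wild type stood highest, at 2394 and 2733 units, so the esa1 sup2- strain lay between the other strains.

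Some pairs ran against that order or not at all. COX5B, the oxidase subunit of low oxygen, was higher at 1.31 (SE 0.22) and its counterpart COX5A lower at -0.34, a call that was lost with median centring and when esa1 sup2- replicate 1, esa1 sup2- replicate 3 or ESA1 sup2- replicate 2 was left out. PDE2, the high-affinity cAMP phosphodiesterase, had 786, 1078 and 837 units in esa1 sup2-, against 383, 365 and 395 in ESA1 sup2- (1.01, SE 0.11), and PDE1, the low-affinity enzyme, had 1417, 1390 and 1248, against 2119, 2001 and 2350 (-0.63, SE 0.09). GPP1 and GPP2, the phosphatases that make glycerol, were both higher: GPP1 had 5679, 6864 and 5613, against 1399, 934 and 1437 (2.18, SE 0.15), and GPP2 was at 2.04 (SE 0.19). TDH3 and TDH1, both glyceraldehyde-3-phosphate dehydrogenases, were at 0.11 and 0.10 and were not called, and with quantile normalization the value of TDH3 turned to -0.15.

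**Figure D4:**
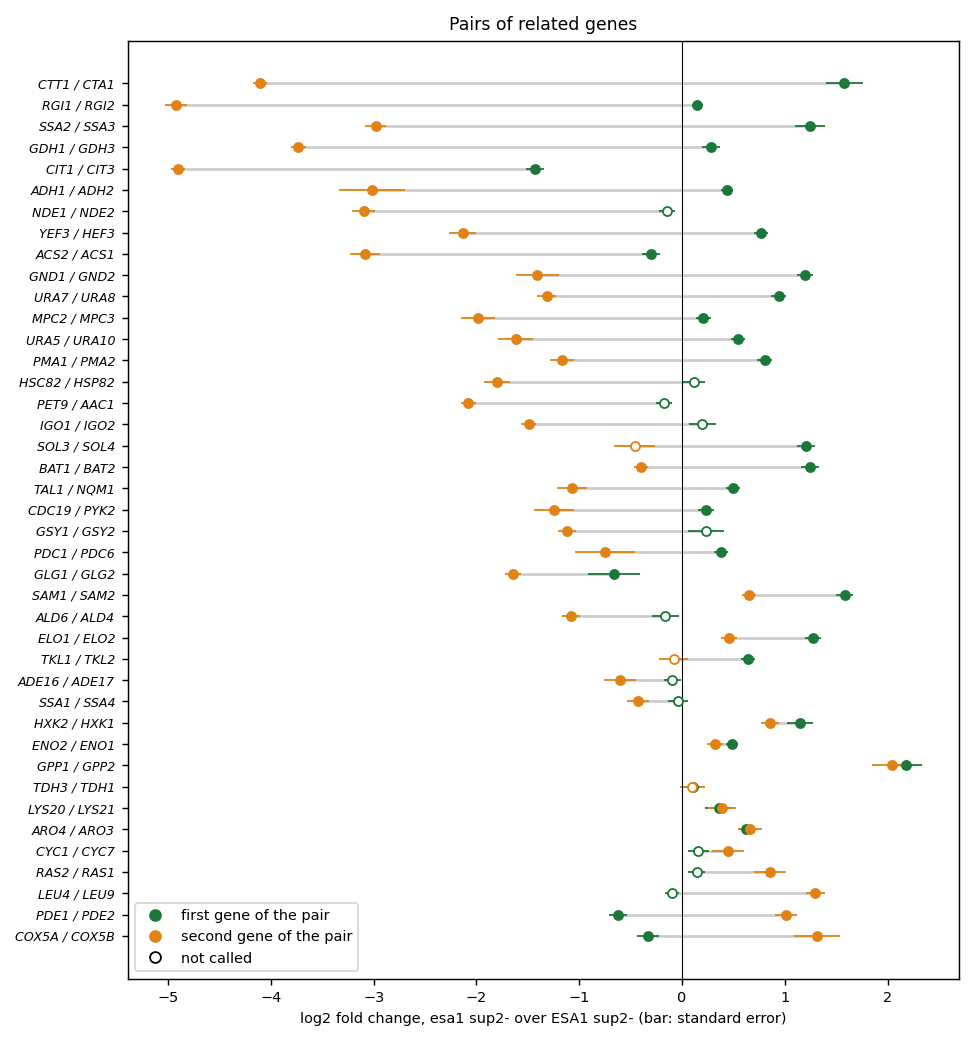
Log2 fold change, esa1 sup2- over ESA1 sup2-, of both genes of each pair (horizontal axis; bars are standard errors of the fit of 3 against 3 arrays with the wild type). Filled points were called and open points were not. The widest gap is between CTT1 at 1.58 and CTA1 at -4.10, and pairs such as TDH3 and TDH1 lie on top of each other.

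Of 21 trehalose and glycogen genes tested, 7 were higher and 10 lower in esa1 sup2-. The 7 became 3 without ESA1 sup2- replicate 1 and 4 without its replicate 3. ATH1, which degrades trehalose outside the cell and in the vacuole, had 246, 181 and 256 units in esa1 sup2-, against 1156, 1213 and 1069 in ESA1 sup2- (log2 fold change -1.87, SE 0.10, limma adjusted p = 8.8e-07). GDB1, the glycogen debranching enzyme, had 711, 588 and 559, against 2063, 2287 and 2083 (-1.62, SE 0.09). TSL1, a subunit of trehalose synthase, had 3100, 3163 and 2658 in esa1 sup2-, against 1249, 1570 and 1180 in ESA1 sup2- and 3068 and 3205 in the wild type (1.10, SE 0.11). TPS2, which acts in the same complex, showed the same order, with 2911, 3086 and 2412, against 1608, 1772 and 1625, and a wild type at 2697 and 2905. In glycogen synthesis, GLG2, which primes the polymer, was at -1.64 (SE 0.08) and GSY2, the main glycogen synthase, at -1.12 (SE 0.09), while its relative GSY1 was at 0.23 and was not called.

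Genes of the stationary phase and of drying had 14 of 22 tested genes called lower and 2 called higher. SPG1, needed for survival in stationary phase, had 281, 230 and 173 units in esa1 sup2-, against 4651, 5121 and 4702 in ESA1 sup2- and 6868 and 7634 in the wild type (log2 fold change -3.84, SE 0.11). SIP18, a hydrophilin of drying cells, had 326, 422 and 381, against 6964, 6261 and 6503 (-3.75, SE 0.10). YGP1, a secreted glycoprotein of starved cells, was one of the 2 exceptions, with 6519, 6886 and 5044, against 4098, 3813 and 3780 (0.63, SE 0.11). The other was RGI1 (0.15), whose value turned to -0.11 with quantile normalization.

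Signalling genes of nutrient response had 12 of 23 tested genes called lower and 5 called higher. IGO2, of the pair of Rim15 targets that protect transcripts in quiescence, had 716, 709 and 779 units in esa1 sup2-, against 2399, 2169 and 2296 in ESA1 sup2- (log2 fold change -1.49, SE 0.07). GPA2, the G protein of the glucose receptor, had 802, 760 and 788, against 1844, 1868 and 1767, with 2959 and 3007 in the wild type (-1.11, SE 0.06). MSN2, an activator of the general stress response, had 537, 613 and 499, against 274, 281 and 280 (0.74, SE 0.07). TOR2, on chromosome XI, was at -0.91 with all arrays and at -1.16 without replicate 3. The 5 higher genes became 3 when chromosome XI probe sets were left out, a choice made after seeing the data.

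The other subunits of NuA4 were lower or near the level of ESA1 sup2-. Of the 12 subunits tested, ESA1 included, 7 were called lower and 1 higher, and with quantile normalization 4 were lower. ESA1 itself is among the lower genes in both counts, since the strain lacks it, and carries no weight there. The calls of EAF1 and EPL1 were lost with quantile normalization, with median centring and when some single arrays were left out. EAF6 had 369, 321 and 572 units in esa1 sup2-, against 799, 786 and 795 in ESA1 sup2- (log2 fold change -0.78, SE 0.15), and EAF3 had 1623, 1471 and 1349, against 2266, 2111 and 2230 (-0.54, SE 0.08). YNG2, which with Esa1, Epl1 and Eaf6 forms the small Piccolo complex, was at -0.42 (SE 0.09), a call lost with quantile normalization. TRA1, the large scaffold subunit shared with SAGA, had 604, 456 and 483, against 523, 816 and 536, with overlapping arrays (-0.22, not called). SWC4, shared with SWR1, was at 0.01. ACT1, actin, which is also a NuA4 subunit, was at 0.25 and lost its call with quantile normalization.

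Called genes of the other acetyltransferases and of the deacetylases were mostly lower. In the SAGA and other acetyltransferase list 1 of 17 tested genes was higher and 8 lower. HPA2, a small acetyltransferase, had 318, 372 and 366 units in esa1 sup2-, against 1102, 759 and 1156 in ESA1 sup2- (log2 fold change -1.24, SE 0.14). NGG1, of the SAGA acetyltransferase module, was at -0.60 (SE 0.08) and SGF11, of its deubiquitinating module, at 0.76 (SE 0.13). Deacetylase genes were lower in 9 of 18 and higher in 2, with SIF2, of the Set3 complex, at -0.60 and CTI6, of the large Rpd3 complex, at -0.59. In the 2 dimmest bins of signal level given below, 43.8% and 42.3% of probe sets were lower and 19.9% and 22.5% higher. Whether these lists differed from other genes of their signal level was not tested. The 9 tested SWR1 and H2A.Z genes held 2 higher and 2 lower, and SWC5 was at -0.78 (SE 0.08).

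Silencing genes had similar sizes of difference. SIR2, the deacetylase of silent chromatin, had 308, 284 and 284 units in esa1 sup2-, against 629, 508 and 614 in ESA1 sup2- and 562 and 554 in the wild type (log2 fold change -0.77, SE 0.08, limma adjusted p = 5.3e-05). SUM1, a repressor of middle sporulation genes, had 355, 234 and 357, against 684, 668 and 693, and the wild type had 1224 and 1276 (-0.89, SE 0.11). HST2, a cytosolic sirtuin, went up by 0.36 (SE 0.08).

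Core histone genes were higher. Of 10 histone genes tested, 7 were called higher and 2 lower. With quantile normalization HTA1 (0.013) and HHT2 (0.31) lost their calls. That of HTA1 was also lost without ESA1 sup2- replicate 1 or without ESA1 sup2- replicate 3. HTB2, the second gene of H2B, had 3670, 4425 and 3653 units in esa1 sup2-, against 1022, 1675 and 1013 in ESA1 sup2- and 1321 and 1234 in the wild type (log2 fold change 1.60, SE 0.17, limma adjusted p = 5.6e-05). HHT1, an H3 gene, had 6055, 6401 and 5644, against 3021, 4028 and 3028 (0.83, SE 0.11). HTB1, the first H2B gene, was at 0.44 (SE 0.08) and at 0.23 with quantile normalization. The probe set of HHF1 is shared between genes, so its value (0.55) may hold both H4 genes. HTA2 had 2 probe sets that differed in size: the brighter one, shared between genes, gave 0.39, and the one of HTA2 alone gave 1.88 (SE 0.17), with 4412, 5485 and 4239 units, against 1000, 1621 and 1016. HHO1, the linker histone, was lower at -0.30 (SE 0.07; not called with median centring), and HTZ1, the H2A.Z gene, was at 0.15 and was not called. CSE4, the centromeric H3, lies on chromosome XI, with 504, 493 and 1038 units, against 1063, 968 and 1015, and was at -0.57 with all arrays and at -0.88 without replicate 3. Its call was lost without any one of the other 5 arrays.

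Ribosome and translation genes were higher as broad groups of small size. Ribosomal protein genes were higher in 72 of 75 large-subunit and 50 of 53 small-subunit cases, with 0 lower, at medians of 0.38 and 0.35. With quantile normalization 42 and 27 of them were higher. Translation factors were higher in 29 of 35 and lower in 1, and cytosolic aminoacyl-tRNA synthetases in 16 of 22 and 1. TIF5, an initiation factor, had 2080, 2197 and 1987 units in esa1 sup2-, against 869, 687 and 838 in ESA1 sup2- (log2 fold change 1.27, SE 0.09), and CDC60, the leucyl-tRNA synthetase, had 2370, 1981 and 2001, against 775, 957 and 785 (1.22, SE 0.10). The 1 lower translation factor was HEF3, and the 1 lower synthetase was GRS2 (-0.44), a second glycyl-tRNA synthetase. RPS22B had 4315, 1778 and 4249 units, against 1445, 2023 and 1484, so replicate 2 of esa1 sup2- lay among the ESA1 sup2- arrays, and its call (0.92) was lost when any one of 4 arrays was left out.

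Ribosome assembly genes were higher in 30 of 49 cases for the small-subunit processome (3 lower) and in 38 of 57 for the large subunit (1 lower). NOP1, the methyltransferase of box C/D particles, had 4255, 4260 and 3688 units in esa1 sup2-, against 1378, 1563 and 1357 in ESA1 sup2- and 587 and 537 in the wild type (log2 fold change 1.43, SE 0.09, limma adjusted p = 2.4e-06). RPA12, a subunit of RNA polymerase I, had 1367, 1829 and 1597, against 579, 588 and 612, and 286 and 263 in the wild type (1.26, SE 0.10). In both genes ESA1 sup2- already lay above the wild type. BRF1 and RPC34, of the RNA polymerase III machinery, were the 2 lower genes of 23, at -0.33 and -0.38. RNA polymerase II and Mediator genes were higher in 14 of 32 and lower in 9, with SRB2 at 1.30 (SE 0.13) and PGD1 at -1.24 (SE 0.11).

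Amino acid synthesis differed by pathway and, within esa1 sup2-, between arrays. Leucine, isoleucine and valine genes were higher in 8 of 12 cases. LEU2 had 2439, 1911 and 1640 units in esa1 sup2-, against 708, 782 and 710 in ESA1 sup2- (log2 fold change 1.29, SE 0.13), and LEU1 had 4131, 3369 and 4413, against 1599, 2266 and 1472 (1.12, SE 0.16). LEU3, the activator of this pathway, was lower, with 250, 179 and 226, against 358, 385 and 349 (-0.52, SE 0.09). LEU9, a minor isopropylmalate synthase, had 1549, 1469 and 1352, against 487, 596 and 484, while LEU4, the major one, was at -0.10 and was not called. The wild type had 182 and 153 units of LEU9. ARO7, chorismate mutase of the aromatic pathway, had 940, 1190 and 1025, against 338, 334 and 393 (1.30, SE 0.09), and ARO9, an aminotransferase of aromatic amino acid breakdown, had 1057, 1225 and 1061, against 3689, 3931 and 3519 (-1.64, SE 0.08).

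Histidine and arginine genes spread widely among the esa1 sup2- arrays. HIS1, the first enzyme of histidine synthesis, was uniform, at 4274, 3930 and 3617 units in esa1 sup2-, against 728, 1023 and 771 in ESA1 sup2- (log2 fold change 2.09, SE 0.12). HIS4 had 5114, 1516 and 3578, against 2069, 2926 and 2159, and was not called (0.35, SE 0.36), with -0.01 without replicate 1 and 0.83 without replicate 2. ARG1 had 4332, 1330 and 2677, against 3023, 3453 and 2863 (-0.30, SE 0.33), and ARG4 had 4920, 1605 and 3578, against 4111, 4537 and 4170 (-0.46, SE 0.32). In these 3 genes, and in ARG3, ARG7, ARG8 and LYS2, replicate 2 was the lowest of the esa1 sup2- arrays. Of 8 arginine genes 2 were lower and 0 higher, and the median of the list was -0.29 with all arrays and 0.05 without replicate 2.

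Of 23 purine genes tested, 10 were higher and 4 lower in esa1 sup2-, and without esa1 sup2- replicate 3 the lower genes were 7. AAH1, adenine deaminase, had 2975, 3717 and 2686 units in esa1 sup2-, against 1136, 721 and 1075 in ESA1 sup2- and 172 and 189 in the wild type (log2 fold change 1.57, SE 0.17). FUR1, the uracil salvage enzyme, had 3848, 3952 and 4201, against 1431, 1190 and 1297 (1.53, SE 0.08). ADE2, of purine synthesis, went down, with 385, 299 and 355, against 1018, 1154 and 1034, and 2563 and 2654 in the wild type (-1.35, SE 0.09). The pyrimidine list had 6 of 13 higher and 3 lower. In the sulfur list, with 9 of 24 higher and 7 lower, SAM1, S-adenosylmethionine synthetase, had 3320, 3861 and 3521, against 1142, 1014 and 1178 (1.58, SE 0.09), and MMP1, the permease for S-methylmethionine, was at -2.01 (SE 0.13).

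Nitrogen use and amino acid uptake had 18 of 35 tested genes called lower and 8 called higher. DIP5, a permease for acidic amino acids, had 366, 307 and 393 units in esa1 sup2-, against 3537, 4249 and 3547 in ESA1 sup2- (log2 fold change -3.03, SE 0.10, limma adjusted p = 5.1e-08). PUT1, proline oxidase, had 424, 453 and 426, against 2718, 3136 and 2663, and 4605 and 5050 in the wild type (-2.41, SE 0.08). HIP1, a histidine permease, was higher, with 1080, 914 and 986, against 403, 385 and 446 (1.06, SE 0.08). PTR2, the peptide transporter, lies on chromosome XI and had 1456, 1106 and 2096, against 591, 158 and 549, at 1.67 with all arrays and 1.45 without replicate 3.

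Autophagy genes were mostly lower: 18 of 24 tested genes against 2 higher. ATG8, the ubiquitin-like protein that is joined to the growing membrane, had 481, 480 and 428 units in esa1 sup2-, against 2382, 2583 and 2527 in ESA1 sup2- and 3313 and 3341 in the wild type (log2 fold change -2.17, SE 0.07, limma adjusted p = 5.3e-08). ATG34, a receptor for vacuolar enzymes, had 290, 216 and 239, against 1776, 1342 and 1723 (-2.23, SE 0.12), and ATG39, a receptor for parts of the nucleus, was at -1.74 (SE 0.09). Vacuolar genes went the other way more often, with 14 of 24 higher and 6 lower. VMA7, a subunit of the vacuolar proton pump, had 4636, 5558 and 4740, against 2573, 2524 and 2642 (0.91, SE 0.08), while LAP3, an aminopeptidase, was at -0.82 (SE 0.12).

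Protein folding genes differed by compartment. Of 22 tested genes of the endoplasmic reticulum and the unfolded protein response, 19 were higher and 1, IRE1, the sensor of unfolded protein, was lower (364, 255 and 313 units in esa1 sup2-, against 479, 569 and 476 in ESA1 sup2-). ERO1, which oxidises thiols in that compartment, had 3097, 1741 and 2429, against 644, 659 and 673 (log2 fold change 1.67, SE 0.17, limma adjusted p = 3.8e-05). SWP1 and OST1, subunits of the enzyme that attaches N-linked glycans, were at 1.31 (SE 0.07) and 1.26 (SE 0.10). Cytosolic chaperones held 15 higher and 13 lower of 34. SSE1, a nucleotide exchange factor of Hsp70, had 4656, 4148 and 4179, against 1547, 1678 and 1582 (1.37, SE 0.07), while HSP82, the inducible Hsp90, had 904, 640 and 905, against 3095, 3448 and 2848 (-1.80, SE 0.13). BTN2, which sorts misfolded protein, was at -2.03 (SE 0.15).

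Proteins that use or move metals were mixed. FET3, the oxidase of high-affinity iron uptake, had 1218, 1034 and 1229 units in esa1 sup2-, against 245, 179 and 278 in ESA1 sup2- (log2 fold change 1.86, SE 0.12), and its partner permease FTR1 had 1582, 1403 and 1338, against 549, 550 and 521 (1.24, SE 0.08). The wild type had 191 and 140 units of FET3, near ESA1 sup2-. CRS5, a metallothionein, was lower at -1.13 (SE 0.09). FRE7, a copper-regulated reductase, had 43.3, 61.3 and 92.1, against 558, 795 and 687 (-2.10, SE 0.35), but its 2 wild-type arrays differed, at 81.9 and 520. ZRC1, the vacuolar zinc transporter, had 2351, 2586 and 2212, against 1074, 1121 and 1096 (1.04, SE 0.08). ZRT1, the high-affinity zinc importer, was the same within the spread, at 3695, 5623 and 3474, against 4095, 4077 and 3991, with the wild type at 954 and 892.

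Of 21 phosphate genes tested, 7 were higher and 7 lower, shares close to those of all probe sets. Their median log2 fold change (-0.10) turned positive with median centring (0.03) and with the dimmest 50% left out (0.29). It also did so without esa1 sup2- replicate 3 or without ESA1 sup2- replicate 3. VTC3, of the polyphosphate polymerase, had 3268, 3451 and 3017 units in esa1 sup2-, against 1354, 1220 and 1498 in ESA1 sup2- (log2 fold change 1.19, SE 0.09), and VTC2 and VTC4 of the same enzyme were at 0.65 and 0.74. GIT1, a transporter of glycerophosphoinositol, had 48.0, 179 and 63.2, against 742, 638 and 658 (-1.92, SE 0.20). PHO5, the secreted phosphatase, was at 7223, 7632 and 5816, against 5767, 4109 and 6098, with overlapping arrays (0.38, not called), and the wild type had 1697 and 1619.

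Of 14 NAD synthesis genes tested, 4 were higher and 5 lower in esa1 sup2-, shares close to those of all probe sets. The larger differences were decreases. BNA4, kynurenine monooxygenase, had 126, 90.0 and 147 units in esa1 sup2-, against 568, 549 and 456 in ESA1 sup2- and 1891 and 1749 in the wild type (log2 fold change -1.42, SE 0.11). BNA6, which forms the nicotinic acid ring nucleotide, had 258, 205 and 307, against 1162, 1238 and 1150, and 2523 and 2746 in the wild type (-1.80, SE 0.10). TNA1, the importer of nicotinic acid, had 297, 227 and 288, against 794, 762 and 789, and 2683 and 2767 in the wild type (-1.21, SE 0.08). In all 3 genes the wild type was highest, ESA1 sup2- lay between, and no arrays of different strains overlapped. PNC1, the nicotinamidase of the salvage route, was higher at 0.46 (SE 0.08).

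Of 16 genes of heme synthesis and oxygen regulation tested, 7 were higher and 4 lower in esa1 sup2-, and of 7 tested mannoprotein genes of low oxygen or cold 4 were higher and 0 lower. The ESA1 sup2- arrays differed among themselves in several of these genes. HEM13, a heme synthesis enzyme that rises when oxygen is short, had 1795, 1984 and 1973 units in esa1 sup2-, against 952, 620 and 933 in ESA1 sup2- (log2 fold change 1.11, SE 0.14), and ROX1, the repressor of low-oxygen genes, had 391, 409 and 281, against 573, 726 and 536 (-0.61, SE 0.13). TIR3, a cell wall mannoprotein, had 2034, 2108 and 2135, against 1338, 242 and 1512. Its call (1.22, SE 0.48, limma adjusted p = 0.047) was lost when any one of the esa1 sup2- arrays was left out, and the value was 0.52 without ESA1 sup2- replicate 2. ESA1 sup2- replicate 2 was also the lowest of its strain for HUG1 (37.0 units, against 222 and 219 on the other arrays of that strain), TIR1 (77.9, against 346 and 325), HXT2 (293, against 667 and 850), COX5B (425, against 897 and 893) and PTR2. For all of these the esa1 sup2- arrays still lay above every ESA1 sup2- array.

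Cell cycle genes were lower more often than higher. In the G2/M and mitotic exit list 22 of 31 genes were called lower and 3 higher, and in the G1/S and replication list 22 of 46 were lower and 7 higher, or 12 and 11 with median centring. Against the wild type the G2/M median was 0.19 in esa1 sup2- and 0.49 in ESA1 sup2-, and the G1/S median was 0.19 and 0.35. The G2/M genes CLB2 and HST3 were not tested. CLB2 had 382, 402 and 267 units in esa1 sup2-, against 174, 156 and 156 in ESA1 sup2-. HST3 went the other way, with 190, 176 and 166, against 256, 230 and 252. AIM44, a protein of the bud neck, had 898, 756 and 828 units in esa1 sup2-, against 2458, 2625 and 2360 in ESA1 sup2- and 1072 and 980 in the wild type (log2 fold change -1.46, SE 0.08). SIC1, the inhibitor of S-phase cyclin kinase, had 309, 331 and 245, against 719, 780 and 670 (-1.02, SE 0.09). POL32, a subunit of DNA polymerase delta, was higher, with 617, 649 and 549, against 211, 232 and 195 (1.12, SE 0.07). MCM1, a factor of cell cycle and mating gene transcription, was at 0.84 (SE 0.11).

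Genes that daughter cells use to separate from their mothers had 8 of 13 tested genes called lower and 1 called higher. DSE4, a glucanase, had 371, 303 and 264 units in esa1 sup2-, against 1168, 1439 and 1018 in ESA1 sup2- (log2 fold change -1.61, SE 0.13), and DSE3 had 624, 462 and 518, against 1488, 1256 and 1381 (-1.19, SE 0.10). CTS1, the chitinase of the same step, was at 0.03 and was not called. ASH1, a repressor that builds up in daughters, lies on chromosome XI and was at -0.97 with all arrays and at -1.09 without replicate 3.

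In the DNA damage list 8 of 22 genes were higher and 10 lower. HUG1 had the largest log2 fold change of the list, at 2.87, although its ESA1 sup2- arrays differed among themselves, as given above. MEC1, the checkpoint kinase, had 369, 289 and 484 units in esa1 sup2-, against 1011, 1036 and 1115 in ESA1 sup2- and 649 and 593 in the wild type (log2 fold change -1.25, SE 0.13, limma adjusted p = 4.6e-05). MAG1, a DNA glycosylase, had 298, 230 and 263, against 834, 678 and 841 (-1.23, SE 0.10). RNR2, the small subunit of ribonucleotide reductase, had 6715, 6764 and 6018, against 3662, 3615 and 4058 (0.76, SE 0.08).

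Most genes of meiosis and sporulation were too dim to test. Of 29 early meiotic genes listed, 6 were bright enough, largely through their level in ESA1 sup2-, so the count of lower genes among them (6) is given without weight. DMC1, the meiotic recombinase, had 123, 122 and 138 units in esa1 sup2-, against 2657, 2491 and 2702 in ESA1 sup2- and 219 and 212 in the wild type. SLZ1, a sporulation protein with a leucine zipper, had 250, 279 and 239, against 2217, 1734 and 2208, and 278 and 284 in the wild type. Both genes were high in ESA1 sup2- alone. IME1, the master activator of meiosis, had 120, 161 and 123, against 471, 422 and 496, with the wild type at 599 and 536 (log2 fold change -1.19, SE 0.09). Among the untested genes, HOP1, of the meiotic chromosome axis, had 191 to 270 units in esa1 sup2-, against 393 to 419 in ESA1 sup2- and 105 and 107 in the wild type. SPO13, a regulator of the first division, had 61.2 to 66.6 units, against 208 to 281, and 36.3 and 29.2 in the wild type.

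The 7 a-specific genes listed fell under the filter on mean level and were not tested. MFA1, a gene of a-factor, had 134, 135 and 223 units in esa1 sup2-, against 408, 101 and 369 in ESA1 sup2-, and AGA2, of a-agglutinin, had 55.9, 90.3 and 95.8, against 266, 69.7 and 260. Both genes were lower in ESA1 sup2- replicate 2 than in its other arrays. The 4 alpha-specific genes passed the filter, and 3 were called higher. Of these, MF(ALPHA)2 passed largely through its level in esa1 sup2-, so its call is given without weight. MF(ALPHA)1, the main gene of alpha-factor, had 4530, 5359 and 5317 units in esa1 sup2-, against 4610, 2562 and 3278 in ESA1 sup2-, with overlapping arrays. Its call (0.56) was lost with quantile normalization and without esa1 sup2- replicate 2, ESA1 sup2- replicate 2 or ESA1 sup2- replicate 3. MF(ALPHA)2, the second alpha-factor gene, had 758, 305 and 2227 units in esa1 sup2-, against 77.3, 61.5 and 62.3 in ESA1 sup2- and 152 and 158 in the wild type (log2 fold change 2.35, SE 0.49). STE3, the receptor for a-factor, lies on chromosome XI and had 846, 729 and 1799, against 333, 351 and 294, at 1.38 with all arrays and 1.02 without replicate 3. SAG1, alpha-agglutinin, had 722, 705 and 1667, against 854, 778 and 853, and was not called (0.18). Replicate 3 of esa1 sup2- was the highest array for MF(ALPHA)2, STE3 and SAG1, although MF(ALPHA)2 and SAG1 are not on chromosome XI. In the pheromone response list 4 of 17 genes were higher and 8 lower, with STE4 at 0.78 (SE 0.11) and STE11 at -1.08 (SE 0.08).

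Genes often used as strain markers were read because a deleted marker gene would show as a signal near background. URA3, HIS3, LEU2, LYS2, ADE2, ADE3, CAN1 and MET17 all had signals of at least 274 units on every esa1 sup2- array and at least 452 on every ESA1 sup2- array. LEU2 (1.29) and MET17 (0.41) were the 2 higher and ADE2 (-1.35) and HIS3 (-0.42) the 2 lower genes of this list. The calls of MET17 and HIS3 were each lost when any one of 4 arrays was left out.

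Membrane and wall genes changed in part. In the sterol list 16 of 29 genes were higher and 7 lower. ERG25, a C-4 methyl sterol oxidase, had 5625, 5331 and 5145 units in esa1 sup2-, against 2251, 2334 and 2081 in ESA1 sup2- and 4989 and 5264 in the wild type (log2 fold change 1.23, SE 0.07), and ERG3 had 3129, 2633 and 2780, against 1144, 1565 and 1083, and 3288 and 3158 in the wild type (1.11, SE 0.13). In both, esa1 sup2- lay near the wild type and ESA1 sup2- below them. SFK1, a plasma membrane protein on chromosome XI, had 1249, 1404 and 1816, against 232, 251 and 227, at 2.16 with all arrays and 2.02 without replicate 3. ELO1 and ELO3, fatty acid elongases, were at 1.27 (SE 0.08) and 1.18 (SE 0.07). Cell wall synthesis genes were higher in 12 of 34, a share close to that of all probe sets, and lower in 5. With median centring 19 were higher, a setting in which 1760 of all 4398 probe sets were higher. MNN1, a Golgi mannosyltransferase, had 2066, 1687 and 1310, against 435, 639 and 457 (1.51, SE 0.16).

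The direction of the difference varied with signal level. With probe sets put in 5 bins of about equal size by their mean of log2(signal + 121) over all 8 arrays, in the brightest bin 51.9% were called higher and 24.1% lower, with a median log2 fold change of 0.22. In the dimmest bin 19.9% were higher and 43.8% lower, with a median of -0.16. The 3 bins between lay in order, with medians of -0.14, -0.06 and 0.06. Since the pseudocount of 121 added to each signal shrinks the values of dim genes, the medians understate the differences at the dim end.

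Position along the chromosome also went with direction. Among probe sets of genes 10 to 20 kb from the outermost annotated gene of their chromosome, 27 of 46 were lower and 10 higher (median -0.43), and at 20 to 30 kb 42 of 80 were lower and 18 higher (median -0.34). Beyond 100 kb 1168 of 3429 were lower and 1125 higher, with a median of -0.00. The outermost 10 kb had 18 tested probe sets, 11 of them lower and 3 higher. How far the lower signal level of genes near the ends accounts for this was not tested. Of the chromosomes whose medians were low, I, III, VI and IX remained below 0 on all 3 esa1 sup2- arrays when genes within 50 kb of the ends were left out, with medians of -0.21 to -0.01.

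**Figure D5:**
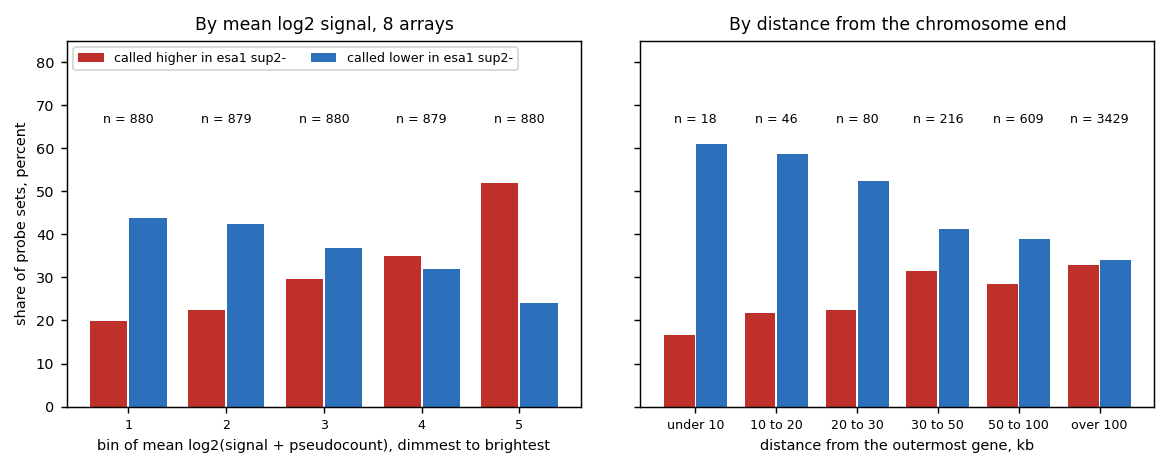
Share of probe sets called higher and lower in esa1 sup2- (vertical axis, percent) by bin of mean log2(signal + 121) over all 8 arrays and by distance from the outermost annotated gene. The share called lower is 61.1% in the outermost 10 kb and 34.1% beyond 100 kb, and the share called higher is 19.9% in the dimmest bin and 51.9% in the brightest.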

How the data were processed

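Intensities were deposited by the authors as 1 signal per probe set for each of the 8 arrays, and GCOS and MAS5 are named in the submitters' processing notes, with versions not given in the sources used here. Analysis used the 5498 probe sets of 1 S. cerevisiae gene, named through the deposited annotation and RefSeq. No coordinates are printed, since the array's build is not named. From these intensities, log2(signal + 121) was taken (121 is the 10th percentile of signals), with no further normalization. The dimmest 20% of probe sets, by mean log2 value over all 8 arrays, were left out. All 8 arrays were fitted together with limma 3.58.1 (R 4.3.3; lmFit, eBayes with an intensity trend), and esa1 sup2- minus ESA1 sup2- was tested, with Benjamini-Hochberg adjustment over 4398 probe sets and a threshold of 0.05. SE is that of the fit.

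The background bound of an array was the 99th percentile of probe sets outside the S. cerevisiae table. Of several probe sets of a gene, the brightest represents it. Named genes were ESA1 and the 2 annotated genes on each side, the 15 largest increases and the 15 largest decreases among called genes whose arrays did not overlap, and in each list up to 3 called genes with the largest change in each direction, with all members of some lists. The members and lists were chosen with earlier results of these data known, and the enzyme pairs after their values were seen. Alternatives covered pseudocounts, quantile normalization, median centring, filters, the arrays fitted, eBayes options, a replicate block and each array left out. Leaving out chromosome XI was added after seeing the data. The fitting steps were tested on simulated data. The number of arrays limits the precision. Tables were handled with pandas 2.3.3 and plots drawn with matplotlib 3.10.9.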

Additional observations from a re-analysis of the deposited data

How the results depend on the processing

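Across 17 alternatives the number of called probe sets ranged from 1930, with the dimmest 50% left out (2749 tested, 871 lower), to 3552 with no filter. Leaving out 1 array at a time gave 2588 to 2972 calls. No called probe set had the opposite call in any alternative except 1 under quantile normalization. The split of calls moved with scaling and with the filter. It was 1516 higher and 1306 lower with quantile normalization, 1760 and 1173 with median centring, and 1521 and 2031 with no filter. Of 517 named genes, 42 lost their call with quantile normalization while keeping their sign. The same count was 33 with median centring and 18 to 47 when 1 array was left out. With quantile normalization BUD9 (0.0052), CPR1 (-0.026), ILV5 (-0.022), RGI1 (-0.11), SED1 (-0.024), CDC19 (-0.0028) and TDH3 (-0.15) changed sign, as ZRT1 (-0.17) did without esa1 sup2- replicate 2 (up to 0.17 without another array), and the cause was not tested. With the replicate number as a block, 2894 probe sets were called (1366 higher, 1528 lower). Same-numbered arrays of both strains deviated together with r of -0.07, -0.09 and 0.05, so the numbers were not shown to pair the samples.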

Other observations

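Some gene groups that the comparison above did not take up held individual genes with clear differences. In the pentose phosphate list 5 of 11 genes were higher and 2 lower, and SOL3, a 6-phosphogluconolactonase, had 3680, 4059 and 3547 units in esa1 sup2-, against 1621, 1435 and 1625 in ESA1 sup2- and 618 and 540 in the wild type (log2 fold change 1.21, SE 0.09, limma adjusted p = 5.5e-06). Its order across strains was that of TKL1, a transketolase of the same pathway (0.64, SE 0.07), which averaged higher in esa1 sup2- than in ESA1 sup2- and lowest in the wild type. Among sugar genes outside glucose uptake, SUC2, invertase, fell by 1.04 (SE 0.14). In the oxidative stress list 11 of 32 genes were higher and 16 lower. OYE2, an NADPH oxidoreductase, had 4678, 4801 and 4386 units in esa1 sup2-, against 2502, 2084 and 2537 in ESA1 sup2-, and GTT1, a glutathione transferase, had 1326, 1262 and 1457, against 3512, 2966 and 3342.

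The core of protein degradation differed little: of 34 proteasome genes 10 were higher and 1 lower, and no log2 fold change was outside -0.19 to 0.33. In RNA decay 19 of 44 genes were higher and 5 lower, with LSM5, of the ring that binds decaying transcripts, at 1.21 (SE 0.08) and CDC39, the scaffold of the Ccr4-Not complex, at -0.83 (SE 0.10). In the RNA modification list 17 of 35 were higher and 8 lower, with TAD2, a tRNA adenosine deaminase subunit, at 1.29 (SE 0.09). Actin and polarity genes were higher in 7 of 35 and lower in 12. RSR1, the GTPase of bud site choice, had 2372, 3128 and 2386 units in esa1 sup2-, against 1229, 911 and 1193 in ESA1 sup2-, while ARC35, of the Arp2/3 complex, had 942, 792 and 736, against 1828, 1881 and 2072. The spore wall gene SPS100 set the 2 sup2- strains apart from the wild type, with 108, 150 and 88.6 units in esa1 sup2-, 270, 383 and 358 in ESA1 sup2-, and 5612 and 6312 in the wild type.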
